A study of Mus musculus with 9 samples.

Results

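The 35 genes described here encode enzymes that turn fatty acids into acetyl-CoA: acyl-CoA synthetases, the carnitine shuttle, the malonyl-CoA switch, mitochondrial and peroxisomal beta-oxidation, and the proteins that pass on its electrons. They were listed by name with earlier results of these data known, so the list may not be independent of the values. Each of the 35 matched 1 row among the 55416 gene identifiers of the table. All 35 passed the filter on low counts and stood among the 13944 genes tested. The RNA came from the gastrocnemius, a calf muscle, of mice, and its 9 libraries formed 3 groups of 3. SED mice were sedentary, AET mice ran on a motorized treadmill for 60 minutes on 5 days a week over 8 weeks, and AET_MET mice did the same training with metformin at 2 mg/mL in their drinking water. Metformin is an oral glucose-lowering drug. No library from mice given metformin without training was analysed here, so metformin acting through the training response and metformin acting by itself cannot be told apart. The sources used here do not give strain, sex, age, feeding state or time of collection. Libraries are numbered within a group, and no label says whether 1 mouse or several gave rise to each, so the spread behind every p-value is that between libraries and may be technical.

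A fatty acid is first joined to coenzyme A by an acyl-CoA synthetase, then carried into mitochondria as an acylcarnitine, and there shortened in a repeating spiral of oxidation, hydration, oxidation and thiolysis. Malonyl-CoA blocks the entry step, carnitine palmitoyltransferase I, so enzymes that make or remove malonyl-CoA set the rate of entry. Peroxisomes shorten very long and branched chains by a similar spiral. Muscle draws on this pathway at rest, in fasting and in endurance exercise, and oxidative fibers carry more of its enzymes than glycolytic fibers do.

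Promoter sequences are shown for Ehhadh, the gene of the 35 with the largest change in both comparisons with SED, for Etfb, the gene called between the trained groups, and for the interval between Hadha and Hadhb, a divergent pair whose ratio of transcripts was higher in AET than in the other groups. They come from RefSeq windows on GRCm38.p6, each 5′ to 3′ on the strand of the gene. Ehhadh is shown at chr16:21787835-21788084 on the minus strand and Etfb at chr7:43443822-43444071 on the plus strand, both as the 250 bases before the start site. The interval between Hadha and Hadhb is chr5:30155163-30155247, 85 bases on the plus strand. Capitals mark GC boxes (GGGCGG) and CCAAT boxes (CCAAT) on either strand, so that the reverse complements are marked too. These motifs were chosen after the values were seen.
Ehhadh: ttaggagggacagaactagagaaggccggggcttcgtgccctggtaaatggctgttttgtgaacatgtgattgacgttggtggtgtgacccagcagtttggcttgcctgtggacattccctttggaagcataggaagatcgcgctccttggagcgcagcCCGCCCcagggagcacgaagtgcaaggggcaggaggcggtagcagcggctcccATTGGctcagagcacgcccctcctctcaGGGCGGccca
Etfb: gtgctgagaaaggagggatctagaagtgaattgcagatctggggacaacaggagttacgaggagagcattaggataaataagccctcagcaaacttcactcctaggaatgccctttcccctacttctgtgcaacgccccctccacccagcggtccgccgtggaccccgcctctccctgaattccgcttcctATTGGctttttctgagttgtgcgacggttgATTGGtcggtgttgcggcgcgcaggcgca
Hadha-Hadhb: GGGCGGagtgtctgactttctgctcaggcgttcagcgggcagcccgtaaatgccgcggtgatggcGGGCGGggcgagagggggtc
The Ehhadh stretch holds 2 GC boxes and 1 CCAAT box, the Etfb stretch 0 and 2, and the interval 2 and 0. Of all 32851 windows of 250 bases before to 50 after a start, 35.7% hold a GC box and 37.4% a CCAAT box. The table matched 29 of the 35 genes, with 32 windows. Among these 32, a GC box was in 24 and a CCAAT box in 17. None of the 32 holds the direct repeat element of PPAR and its partner RXR on either strand, which is in 0.0396% of all windows, or a form of it with 1 free base in each half-site, in 0.381%. Elements this rare are likely to be missing from 32 windows of any genes, so their absence says little about PPAR binding. Sites outside the windows or with other letters were not sought. The element of estrogen-related receptors (TCAAGGTCA on either strand, 0.423% of all windows) is in 1 window, of Acsl6. The receptor elements share a half-site, so their matches can overlap. These matches describe the letters of the windows alone.

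The shallowest library was AET_MET replicate 1, with 15434424 expected counts, and the deepest AET replicate 3, with 25355877, and single genes of the pathway had 27 to 10416 expected counts in a library. The 6 defining markers of muscle fibers (Acta1, Ckm, Des, Tnnt3, Mb, Myh4) were abundant, with a sum of 125827 ± 8633 CPM in the SED group, 120892 ± 10612 in the AET group and 120184 ± 9351 in the AET_MET group (mean ± SD, n = 3). CPM is a gene's share of its library, after scaling between libraries by the trimmed mean of M-values. Slow-fiber markers set libraries apart within the trained groups. The 8 of them (Myh7, Myl2, Myl3, Tnnc1, Tnni1, Tnnt1, Tpm3, Atp2a2) summed to 837, 1013 and 851 CPM in the SED libraries, 408, 339.5 and 1280.2 in those of AET and 89.1, 724 and 284 in those of AET_MET. AET_MET replicate 1 was lowest and AET replicate 3 highest, and none of the 8 markers was called by edgeR in any comparison, though each had a lower estimate in all 3. The 8 fast-fiber markers (Myh1, Myh2, Myh4, Actn3, Pvalb, Tnnc2, Tnni2, Tnnt3) summed to 119482 ± 10378, 119726 ± 9933 and 114192 ± 7208 CPM in SED, AET and AET_MET, and none was called. Among them, Myh2, the myosin of fast oxidative fibers, stood at 1631, 2436 and 2933 CPM in the SED libraries, 2010.3, 2329.7 and 3469 in those of AET and 1449, 1599 and 882 in those of AET_MET. Every AET_MET library was below every other library, with AET_MET replicate 3 lowest and AET replicate 3 highest, and the log2 change against SED was -0.83 ± 0.33 (adjusted p = 0.209). Mb, myoglobin, stood at 990.1, 1400.1 and 1853 CPM in the SED libraries, 1129.9, 1715 and 1938 in those of AET and 1159, 1096 and 705 in those of AET_MET, with the same libraries lowest and highest. Both were singled out after their values were seen. No marker of any list was at 0 in all libraries. In bulk muscle, fewer fibers of a type and less RNA per fiber cannot be told apart. Markers of fibroblasts and tendon cells summed to 1141 ± 118, 780.0 ± 70.6 and 676 ± 62.9 CPM in the same order of groups, with every trained library below every SED library, and those of Schwann cells to 58.0 ± 3.75, 123 ± 34.3 and 58.4 ± 27.6, highest in AET. Adipocyte markers summed to 162 ± 20.1, 187 ± 19.2 and 182 ± 64.1 CPM, endothelial markers to 186 ± 16.0, 181 ± 9.42 and 159 ± 18.6, and macrophage markers to 68.5 ± 8.04, 73.6 ± 18.7 and 63.6 ± 9.86. Myh4 made up most of the sum of the defining markers and Fabp4 most of the adipocyte sum, at 75774 and 116.5 CPM in SED. In each comparison with SED, 1 of the 8 adipocyte markers had a lower estimate. Against SED, Acta1 was called lower in AET, with a log2 change of -0.37, as was Dcn of the fibroblast and tendon list, with -0.47. Col1a1 of that list was called lower in AET_MET, with -1.82. Cldn5 of the endothelial list was called lower in AET, with -1.03, and in AET_MET, with -0.77. The Schwann cell markers Sox10 and S100b were called higher in AET, with 0.95 and 1.73. No other marker of any list was called. The part of any of these in the results was not tested.

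Per length of the principal transcript, the most abundant genes of the pathway in SED were Hadhb at 155 CPM per kb, Acadm at 130.5, Acadvl at 119.6 and Cpt1b at 102. At the low end stood Acad10 at 0.490, Acsl5 at 0.933 and Decr2 at 1.04 CPM per kb. The muscle form of carnitine palmitoyltransferase I, Cpt1b, thus far outweighed the liver form, Cpt1a, at 4.66. Peroxisomal members were low as a group, with a summed level in SED of 50.6 ± 5.11 CPM per kb against 438 ± 29.8 for the 6 genes of the later mitochondrial steps (SD, n = 3).

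**Figure D1:**
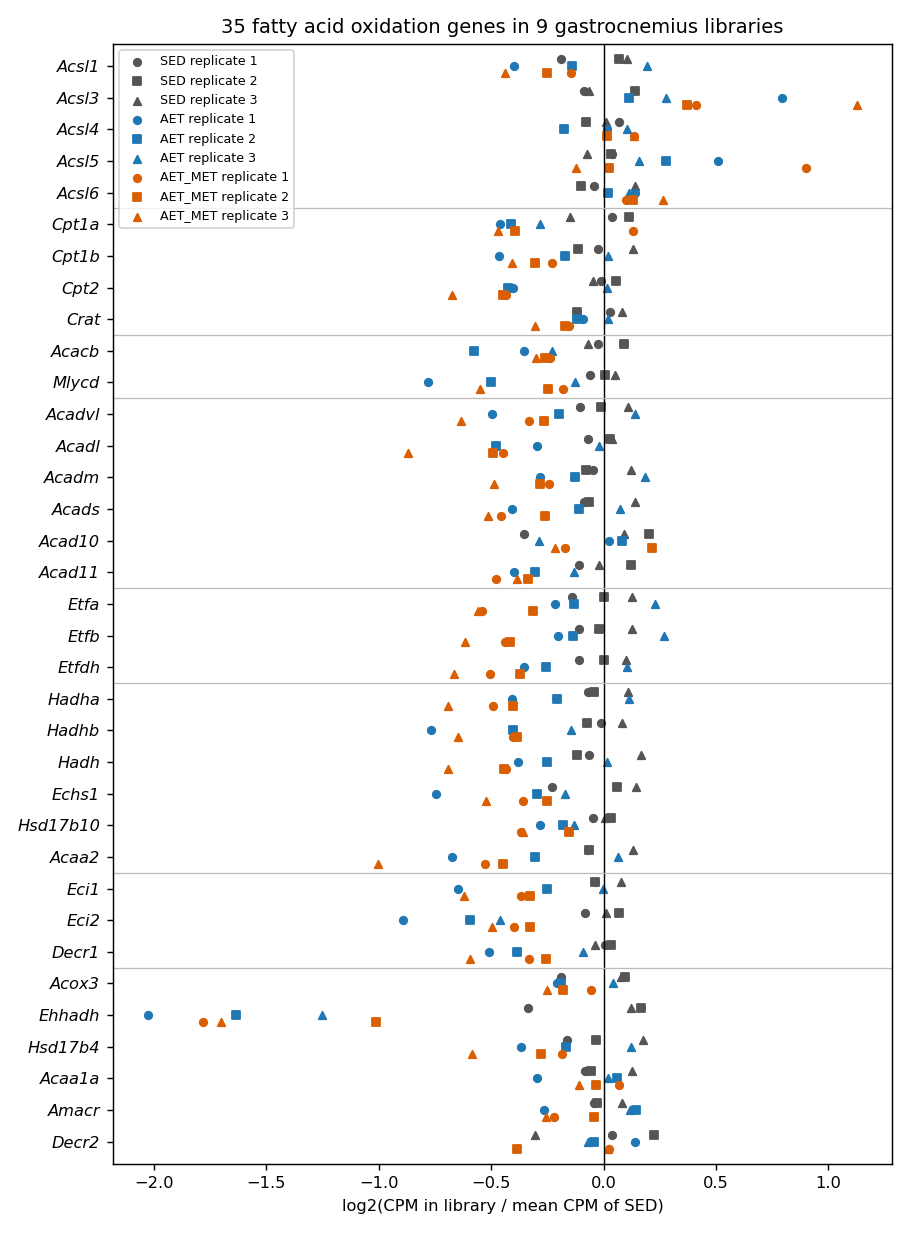
Level of each of the 35 genes in each of the 9 libraries, as log2 of CPM over the mean CPM of SED (x axis, 0 is the SED mean), with 1 row per gene and lines between steps of the pathway. Ehhadh lay below every SED library in all 6 trained libraries, the AET_MET libraries lay below SED for 24 of the 35 genes, and all 3 AET_MET libraries lay above SED for Acsl3.

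With training alone, few of these genes were called. Ehhadh, Eci2 and Acacb fell with training, and no other member was called at an adjusted p under 0.05 by edgeR's quasi-likelihood test over all genes. These 3 of 35 are 8.57% of the members, while 12.3% of all genes tested were called in this comparison and 6.45% were called lower. No member was called higher by edgeR, against 5.82% of all genes, or by DESeq2. At an unadjusted p under 0.05 in edgeR, 11 members were lower, beside 14.2% of all genes, and 0 higher, beside 14.3%. In all, 30 of 35 members had a lower estimate, against 48.6% of all genes, with a median log2 change of -0.15 beside 0.011 for all genes. Every AET library lay below every SED library for 9 members, or 25.7%, against 16.3% of all genes, and above for 1, Acsl5, against 16.4%. AET replicate 3 stood apart in its group by slow-fiber markers, and without it 8 members were called lower, with Acad11, Cpt2, Decr1, Hadhb and Mlycd beside the 3 above, and the median log2 change was -0.30. In that fit 6.65% of all genes were called, 3.6% were called lower, and the all-gene median was 0.001. AET replicate 3 had the highest AET value for 28 of 35 members, so leaving it out was bound to lower most AET estimates. Without AET replicate 1, the lowest for 25 members, 3 were called lower and the median log2 change was -0.07. That fit called 934 of all genes, 522 of them lower, with an all-gene median of 0.003.

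In trained mice given metformin, 10 of 35 members fell against SED, which is 28.6%, while 4.59% of all genes were called and 2.42% called lower. They were Cpt2, Acadl, Acad11, Etfa, Etfb, Etfdh, Hadh, Hadha, Eci2 and Ehhadh. No member was called higher by edgeR, against 2.17% of all genes. At an unadjusted p under 0.05, 23 were lower, beside 10.4% of all genes, and 1, Acsl3, was higher, beside 10.2%. DESeq2 called Acsl3 higher. In all, 31 of 35 estimates were lower, against 49.5% of all genes, and the median log2 change was -0.34, beside 0.003 for all genes. AET_MET libraries lay wholly below SED for 24 members, or 68.6%, against 13.4% of all genes. These calls rest on few libraries. Of the 10, none was called without SED replicate 3 or without AET_MET replicate 3. Only Hadh was called without SED replicate 2, and only Acadl without AET_MET replicate 1. Calls over all genes fell as well, from 640 to 329, 141, 253 and 181 in that order of fits. The median log2 change of the members in them was -0.30, -0.27, -0.36 and -0.38. Without AET replicate 2, which enters through the shared spread, 6 were called, beside 476 of all genes. With library sizes alone as the scaling, Acadl and Ehhadh were called, beside 860 of all genes, 176 of them lower. The order of the counts for AET_MET and AET, 10 against 3, turned under these settings. It was 1 against 2 without SED replicate 2 and 0 against 3 without SED replicate 3. It was 1 against 4 without AET_MET replicate 1, 0 against 3 without AET_MET replicate 3 and 2 against 3 with library sizes alone. Over all genes, calls in AET_MET and AET against SED numbered 640 and 1712 as reported. In the same order of settings they were 253 and 957, 329 and 1213, 181 and 1509, 141 and 1490, and 860 and 1416 with library sizes alone. That scaling moved the median of all genes to 0.10 and that of the members to -0.24, so the members lay below all genes by a difference of -0.34 there, beside -0.34 and 0.003 with the scaling used here. Both comparisons with SED use the same SED libraries.

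With the trained groups set directly against each other, 1 member was called. Etfb was lower in AET_MET than in AET, 2.86% of the members against 3.43% of all genes called and 1.77% called lower. No member was called higher, against 1.66%. At an unadjusted p under 0.05, 10 members passed, beside 21.4% of all genes, of which 9 were lower, beside 10.6%, and 1, Eci2, was higher, beside 10.8%. In all, 23 of 35 estimates were lower, against 49.9%, and the median log2 change was -0.12, beside 0.001 for all genes, and 6 members, or 17.1%, had every AET_MET library below every AET library, against 13.2% of all genes. No member had every AET_MET library above AET, against 14.7%. The Etfb call was lost when any 1 of the 9 libraries was left out (adjusted p up to 0.17), and was also lost in 3 of 8 other settings, among them library sizes alone and a fit of the trained groups alone.

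**Figure D2:**
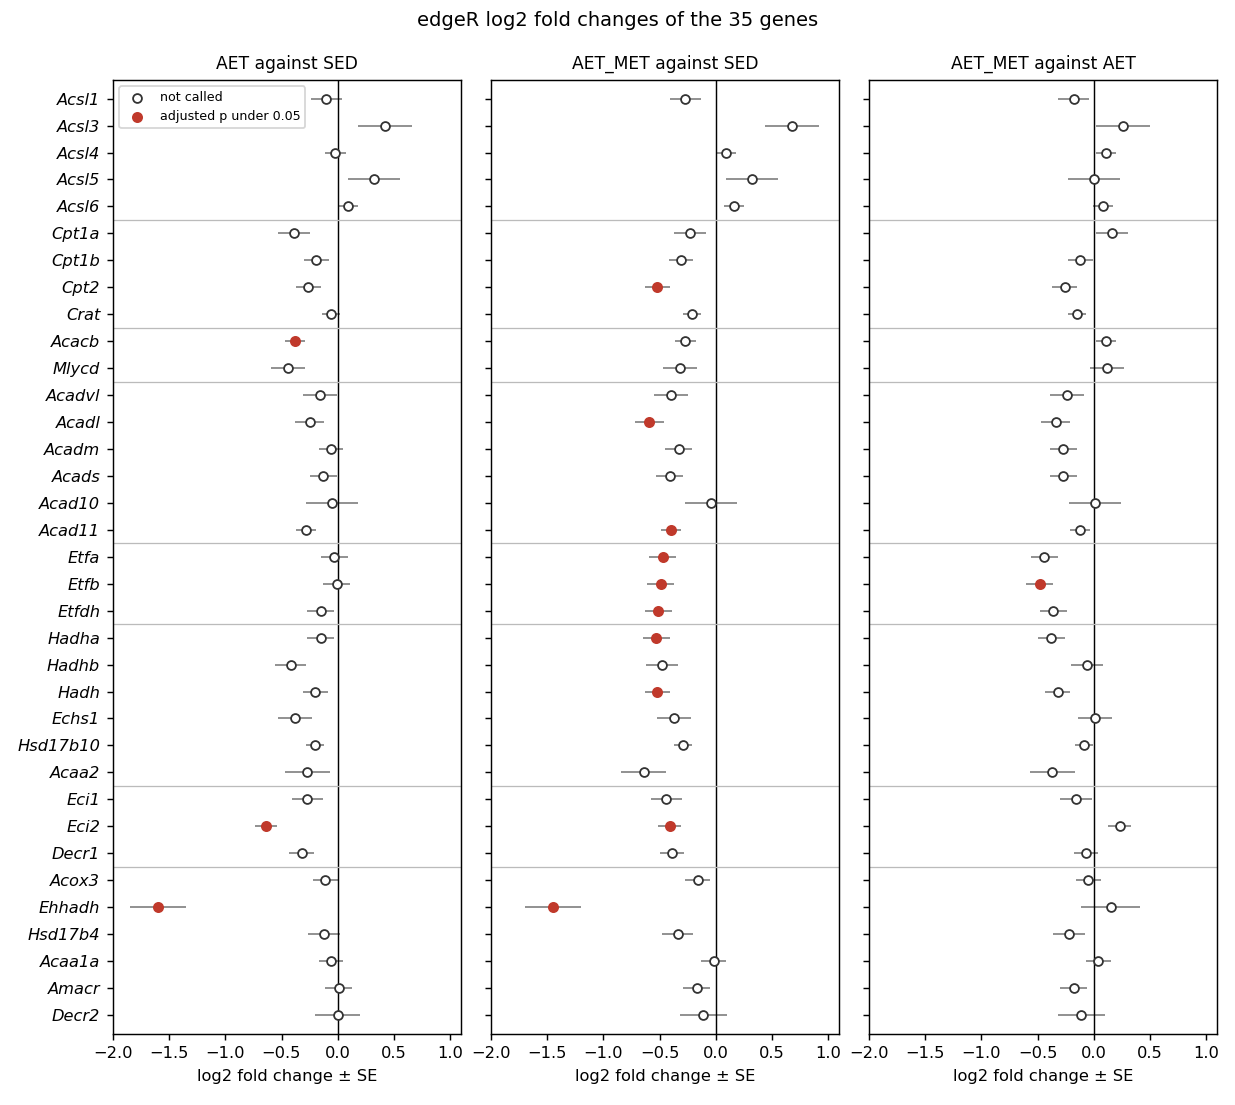
Log2 fold change ± SE of each of the 35 genes (y axis) in 3 panels, 1 per comparison, with filled points for an adjusted p under 0.05. Filled points, all to the left of 0, stand at 3 genes for AET and 10 for AET_MET, both against SED, and at 1 gene between the trained groups.

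Acyl-CoA synthetases, which commit a fatty acid to metabolism, held no call in any comparison. Acsl1, the main form of muscle, stood at 324, 387 and 397 CPM in the SED libraries, 279.9, 335 and 422 in those of AET and 334, 310.0 and 273 in those of AET_MET. Its groups overlapped, with log2 changes of -0.10 ± 0.14 (adjusted p = 0.703) in AET and -0.27 ± 0.14 (adjusted p = 0.304) in AET_MET against SED. Acsl3, a form tied to the endoplasmic reticulum and lipid droplets, stood at 12.8, 15.0 and 13.0 CPM in the SED libraries, 23.6, 14.7 and 16.5 in those of AET and 18.1, 17.6 and 29.7 in those of AET_MET. All 3 AET_MET libraries were above SED, with AET_MET replicate 3 highest, and the log2 change was 0.68 ± 0.24 (adjusted p = 0.159). Acsl4, Acsl5 and Acsl6 had log2 changes against SED between -0.02 and 0.32. In AET_MET against SED the 4 higher estimates among the 35 were those of Acsl3, Acsl4, Acsl5 and Acsl6.

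The carnitine shuttle moves acyl groups across the mitochondrial membranes. Cpt1b, the muscle form of its rate-setting outer enzyme, stood at 289, 272 and 322 CPM in the SED libraries, 213, 261 and 298 in those of AET and 251, 238 and 222 in those of AET_MET. AET_MET lay below SED and AET overlapped it, with log2 changes of -0.19 ± 0.11 (adjusted p = 0.287) in AET and -0.31 ± 0.11 (adjusted p = 0.141) in AET_MET, neither called. Cpt1a, the liver form, stood at 20.6, 21.7 and 18.1 CPM in the SED libraries, 14.6, 15.1 and 16.5 in those of AET and 22.0, 15.3 and 14.5 in those of AET_MET. All AET libraries were below SED, whereas AET_MET replicate 1 was above it, and the log2 changes against SED were -0.39 ± 0.14 (adjusted p = 0.0902) in AET and -0.23 ± 0.14 (adjusted p = 0.39) in AET_MET. Cpt2, the inner-membrane enzyme that returns the acyl group to coenzyme A, stood at 47.9, 50.1 and 46.8 CPM in the SED libraries, 36.5, 36.0 and 48.8 in those of AET and 35.7, 35.4 and 30.3 in those of AET_MET. It fell in AET_MET against SED, with a log2 change of -0.52 ± 0.11 (adjusted p = 0.0254), with no overlap, while in AET replicate 3 stood within the SED range and the log2 change was -0.26 ± 0.11 (adjusted p = 0.155). Crat, which moves short acyl groups onto carnitine, had log2 changes of -0.06 ± 0.08 in AET and -0.21 ± 0.08 in AET_MET against SED, neither called.

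The malonyl-CoA switch held a call in AET. Acacb, the mitochondria-bound acetyl-CoA carboxylase that makes malonyl-CoA (chr5:114146535-114250761, GRCm38, protein-coding), stood at 400.4, 434 and 388 CPM in the SED libraries, 319, 273 and 348 in those of AET and 345, 339.6 and 331 in those of AET_MET. Every trained library was below every SED library. The log2 change was -0.38 ± 0.09 (adjusted p = 0.0195) in AET and -0.27 ± 0.09 (adjusted p = 0.122) in AET_MET against SED, the latter not called. Leaving out replicate 2 of SED or of AET ended the AET call (adjusted p up to 0.0759). Mlycd, which removes malonyl-CoA, stood at 86.0, 90.1 and 93.1 CPM in the SED libraries, 52.3, 63.5 and 82.3 in those of AET and 79.3, 75.6 and 61.4 in those of AET_MET. It too lay below SED in all trained libraries, yet was not called, with log2 changes of -0.44 ± 0.15 (adjusted p = 0.0857) in AET, where replicate 1 was lowest, and -0.32 ± 0.15 (adjusted p = 0.27) in AET_MET. The ratio of Acacb to Mlycd, maker to remover, was 4.55 ± 0.334 in the SED group, 4.88 ± 1.06 with training and 4.74 ± 0.562 with training and metformin (SD, n = 3), and its groups overlapped.

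Acyl-CoA dehydrogenases open each turn of the spiral and differ in the chain length they take. Acadvl, for very long chains, stood at 241, 257 and 279 CPM in the SED libraries, 184, 226 and 286 in those of AET and 206, 215 and 167 in those of AET_MET. Acadm, for medium chains, stood at 258, 253 and 291 CPM in the SED libraries, 219.8, 245 and 303 in those of AET and 226, 219.9 and 191 in those of AET_MET. For both, AET_MET lay below SED and AET replicate 3 was above every SED library. The log2 changes in AET_MET against SED were -0.40 ± 0.15 (adjusted p = 0.16) for Acadvl and -0.33 ± 0.12 (adjusted p = 0.122) for Acadm, neither called. Acadl, for long chains, stood at 155, 166 and 167 CPM in the SED libraries, 132, 117 and 160.4 in those of AET and 119, 116 and 89.0 in those of AET_MET. It fell in AET_MET against SED, with a log2 change of -0.59 ± 0.13 (adjusted p = 0.0253), with the lowest value in AET_MET replicate 3, and against AET the log2 change was -0.34 ± 0.13 (adjusted p = 0.149), not called. Acad11, a dehydrogenase of hydroxylated and long-chain acyl groups, stood at 60.2, 70.8 and 64.1 CPM in the SED libraries, 49.3, 52.6 and 59.3 in those of AET and 46.6, 51.4 and 49.8 in those of AET_MET. Its trained libraries were all below SED, with a log2 change of -0.40 ± 0.09 (adjusted p = 0.0236), a call, in AET_MET and of -0.28 ± 0.09 (adjusted p = 0.056) in AET that was not called. Acads, for short chains, had a log2 change of -0.41 ± 0.12 in AET_MET against SED, not called, and Acad10, the least abundant member, ranged from 1.47 to 2.18 CPM with overlap in all comparisons.

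Electrons from these dehydrogenases pass to the electron transfer flavoprotein, made of the Etfa and Etfb subunits, and from it to the ubiquinone pool through Etfdh. This was the only step of which every member was called in AET_MET against SED. With 1 library left out, Etfa and Etfb each kept that call in 4 of 9 fits and Etfdh in 5 of 9. All 3 calls were lost with library sizes alone. The 3 genes for unsaturated chains had log2 changes between -0.44 and -0.39 in the same comparison, with 1 call. Etfa stood at 67.3, 74.4 and 81.1 CPM in the SED libraries, 64.0, 67.7 and 87.0 in those of AET and 51.1, 59.7 and 50.4 in those of AET_MET. Etfb (chr7:43444083-43457800, GRCm38, protein-coding) stood at 77.6, 82.4 and 91.3 CPM in the SED libraries, 72.8, 76.2 and 101 in those of AET and 61.7, 62.7 and 54.5 in those of AET_MET. Etfdh stood at 143, 154 and 165 CPM in the SED libraries, 120.4, 129 and 166 in those of AET and 108, 119 and 97.0 in those of AET_MET. For each of the 3, every AET_MET library was below every SED and every AET library, while AET spanned the SED range and AET replicate 3 was the highest of all 9. Against SED the log2 changes in AET_MET were -0.47 ± 0.12 (adjusted p = 0.0464) for Etfa, -0.49 ± 0.12 (adjusted p = 0.0376) for Etfb and -0.51 ± 0.12 (adjusted p = 0.0318) for Etfdh, and in AET they were -0.03 ± 0.12, -0.01 ± 0.12 and -0.15 ± 0.12. The small AET estimates of Etfa and Etfb turned sign with upper-quartile scaling, and that of Etfb also with library sizes alone. In AET_MET against AET, Etfb was lower, with a log2 change of -0.48 ± 0.12 (adjusted p = 0.0462), whereas the log2 changes of Etfa, at -0.44 ± 0.12 (adjusted p = 0.0623), and Etfdh, at -0.36 ± 0.12 (adjusted p = 0.106), were not called. The ratio of Etfa to Etfb in CPM was 0.886 ± 0.0178 in the SED group, 0.877 ± 0.0121 with training and 0.901 ± 0.0654 with training and metformin (SD, n = 3), and its groups overlapped. Summed over the 3 genes, the level was 212 ± 17.3 CPM per kb in the SED group, 204 ± 36.0 with training and 151 ± 12.5 with training and metformin (SD, n = 3).

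**Figure D3:**
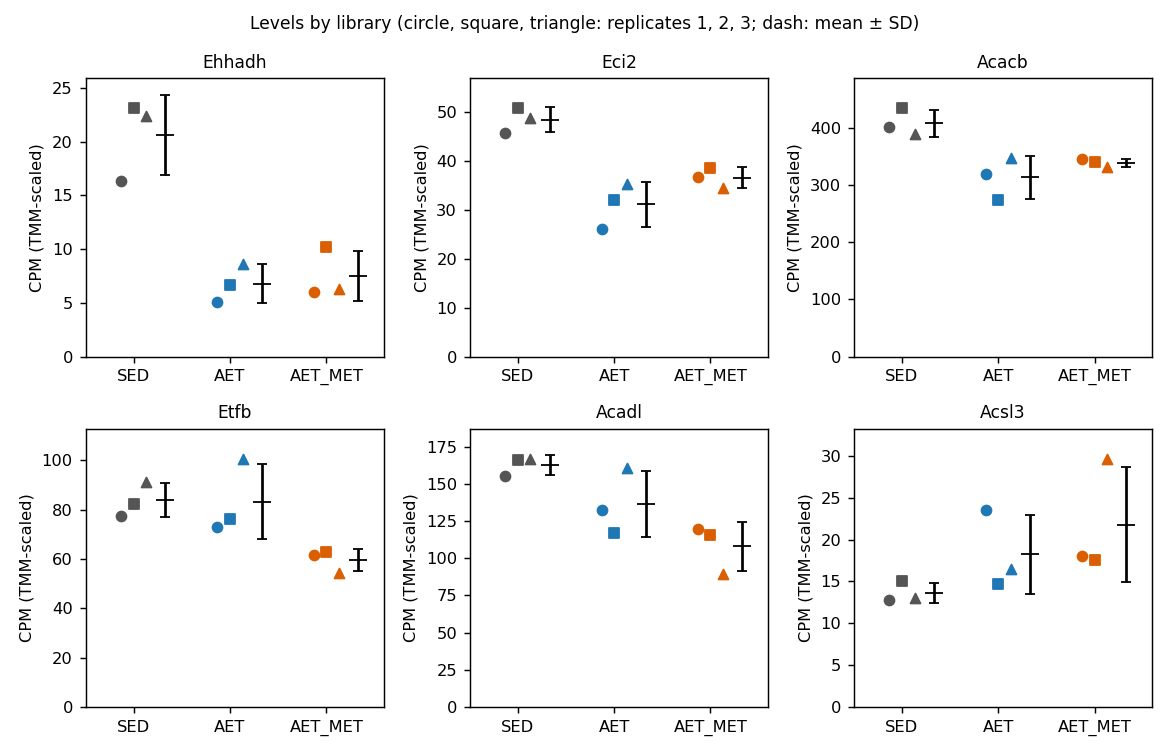
CPM of 6 genes in each library (points, by group and replicate) with mean ± SD (dash and bar, n = 3). Ehhadh, Eci2 and Acacb are lower than SED in all trained libraries, Etfb and Acadl are lower than SED in all AET_MET libraries, and Acsl3 is above SED in all AET_MET libraries.

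The later steps of the spiral are run by the trifunctional protein, a complex of Hadha (hydratase and dehydrogenase) and Hadhb (thiolase), and by soluble enzymes for shorter chains. Hadha stood at 308, 314 and 348 CPM in the SED libraries, 244, 279.8 and 349 in those of AET and 229, 244 and 199.7 in those of AET_MET. Hadhb stood at 314, 300.4 and 336 CPM in the SED libraries, 186, 239 and 287 in those of AET and 239, 242 and 202 in those of AET_MET. Both were lower than SED in all AET_MET libraries. Hadha fell, with a log2 change of -0.53 ± 0.12 (adjusted p = 0.0331), and Hadhb had one of -0.48 ± 0.14 (adjusted p = 0.0713), not called. In AET, Hadhb lay below SED in all 3 libraries and Hadha overlapped it. Their log2 changes in AET were -0.42 ± 0.14 (adjusted p = 0.0662) for Hadhb and -0.15 ± 0.12 (adjusted p = 0.453) for Hadha, neither called. The genes stand head to head on chromosome 5, with the 85 bases printed above between their annotated starts. Their ratio, chosen after its values were seen, was 0.979, 1.04 and 1.04 in the SED libraries, 1.31, 1.17 and 1.22 in those of AET, and 0.958, 1.01 and 0.988 in those of AET_MET. AET was above both other groups in every library, and scaling between libraries does not enter a ratio within a library. Hadha overlaps Garem2 on the other strand, and no source used here says whether counting used strand, so reads of the pair cannot be told apart. The part of this overlap in the ratio was not tested.

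**Figure D4:**
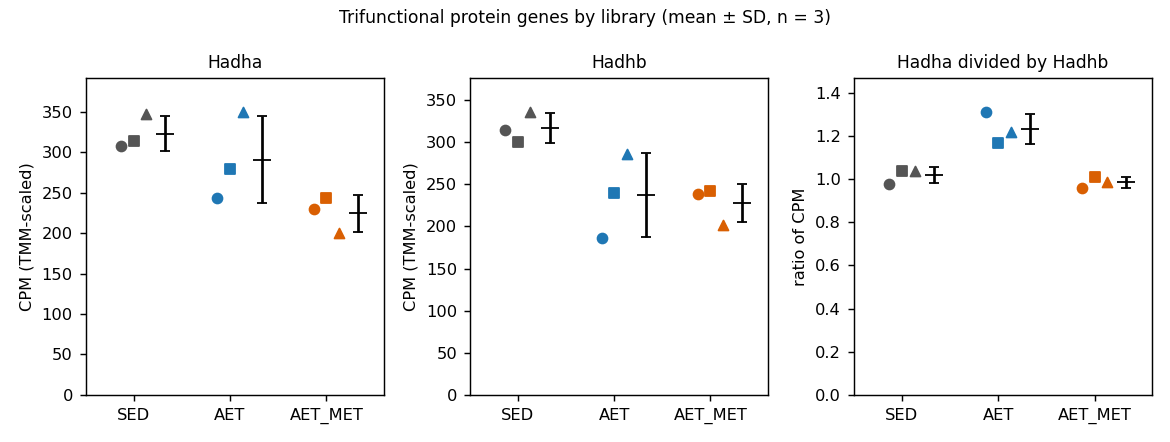
CPM of Hadha and Hadhb and the ratio of both in each library (points) with mean ± SD (n = 3). The ratio lies between 1.17 and 1.31 in AET and between 0.958 and 1.04 in the other groups.

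Among the soluble enzymes, Hadh, the dehydrogenase of short and medium chains, stood at 120.5, 116 and 141 CPM in the SED libraries, 96.6, 106 and 127 in those of AET and 93.2, 92.5 and 78.0 in those of AET_MET. It fell in AET_MET against SED, with a log2 change of -0.52 ± 0.11 (adjusted p = 0.0254), and every AET_MET library was also below every AET library, with a log2 change of -0.32 ± 0.11 (adjusted p = 0.126) that was not called. Echs1, the short-chain hydratase, Hsd17b10, a mitochondrial dehydrogenase of short chains, and Acaa2, the mitochondrial thiolase, were not called. In AET_MET against SED they had log2 changes of -0.37 ± 0.15, -0.29 ± 0.08 and -0.64 ± 0.20. The estimate for Acaa2 was the farthest below 0 among the 6 genes of the later steps, and its SE the largest. Its CPM ran from 54.0 in AET_MET replicate 3 to 118.5 in SED replicate 3.

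Unsaturated fatty acids need isomerases and a reductase to enter the spiral. Eci2, an enoyl-CoA isomerase of mitochondria and peroxisomes (chr13:34977748-35027096, protein-coding), had the smallest adjusted p of the 35 in AET against SED. It stood at 45.8, 50.8 and 48.8 CPM in the SED libraries, 26.1, 32.1 and 35.2 in those of AET and 36.8, 38.6 and 34.4 in those of AET_MET. All trained libraries were below SED, and it fell, with a log2 change of -0.64 ± 0.10 (adjusted p = 0.00196) in AET and of -0.41 ± 0.10 (adjusted p = 0.0392) in AET_MET. The AET call held without any 1 library, whereas the AET_MET call was kept in 3 of 9 such fits. Against AET, the log2 change in AET_MET was 0.23 ± 0.10 (adjusted p = 0.208), not called. Eci1, the mitochondrial isomerase, stood at 53.9, 53.8 and 58.3 CPM in the SED libraries, 35.3, 46.5 and 55.2 in those of AET and 42.8, 44.0 and 36.0 in those of AET_MET. Its log2 changes of -0.27 ± 0.14 and -0.44 ± 0.14 against SED were not called. Decr1, the dienoyl-CoA reductase of mitochondria, lay below SED in all trained libraries. Its log2 changes were -0.32 ± 0.11 (adjusted p = 0.0738) in AET and -0.39 ± 0.11 (adjusted p = 0.0633) in AET_MET, neither called.

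Of the 6 members grouped here as peroxisomal, 1 was called against SED. Eci2, found in mitochondria and peroxisomes and called in both comparisons with SED, was grouped with the genes for unsaturated chains. Ehhadh, the bifunctional hydratase and dehydrogenase of the inducible peroxisomal spiral and a known target of PPAR-alpha (chr16:21761287-21787807, protein-coding), stood at 16.3, 23.1 and 22.4 CPM in the SED libraries, 5.06, 6.64 and 8.64 in those of AET and 5.98, 10.2 and 6.33 in those of AET_MET. The trained libraries did not overlap SED, and SED replicate 1 was the lowest of its group. It fell, with a log2 change of -1.60 ± 0.25 (adjusted p = 0.00568) in AET and of -1.45 ± 0.25 (adjusted p = 0.018) in AET_MET, from 20.6 ± 3.72 CPM in SED to 6.78 ± 1.79 and 7.52 ± 2.36 (SD, n = 3). Its AET call held without any 1 library, and its AET_MET call in 5 of 9 such fits, and the latter was also lost with no filter on low counts. The trained groups overlapped, with a log2 change of 0.15 ± 0.26 (adjusted p = 0.784) between them. Hsd17b4, the other peroxisomal bifunctional enzyme, stood at 59.5, 65.2 and 75.4 CPM in the SED libraries, 51.7, 59.4 and 72.6 in those of AET and 58.6, 54.9 and 44.5 in those of AET_MET. Its log2 changes against SED, -0.12 ± 0.14 and -0.34 ± 0.14, were not called. Decr2, the peroxisomal dienoyl-CoA reductase, stood at 2.36, 2.69 and 1.86 CPM in the SED libraries, 2.53, 2.23 and 2.19 in those of AET and 2.34, 1.76 and 2.33 in those of AET_MET, with overlapping groups and log2 changes of 0.00 ± 0.20 and -0.11 ± 0.21. Acox3, an oxidase of branched chains, Acaa1a, the peroxisomal thiolase, and Amacr, a racemase of branched chains, had log2 changes against SED between -0.17 and 0.01.

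Other genes of the pathway, 32 on a separate list, were taken for comparison, and 29 of them were tested. With training 4 of these fell and 0 rose, and with training and metformin 3 fell and 0 rose, both against SED. These are 13.8% and 10.3% of the 29, beside 12.3% and 4.59% of all genes called and 6.45% and 2.42% called lower. Between the trained groups 1 was lower and 1 higher in AET_MET, together 6.9% of the 29, beside 3.43% of all genes called. Their median log2 changes in the 3 comparisons, in that order, were -0.15, -0.23 and -0.06, beside 0.011, 0.003 and 0.001 for all genes. Slc25a20, the carnitine-acylcarnitine carrier of the inner membrane, stood at 63.1, 70.9 and 73.6 CPM in the SED libraries, 44.0, 47.0 and 60.9 in those of AET and 44.2, 50.3 and 44.5 in those of AET_MET. It fell, with a log2 change of -0.45 ± 0.11 (adjusted p = 0.0239) in AET and of -0.58 ± 0.11 (adjusted p = 0.0159) in AET_MET. All trained libraries were below SED. Mut, the methylmalonyl-CoA mutase for the last carbons of odd chains, fell, with a log2 change of -0.32 ± 0.08 (adjusted p = 0.0237) in AET and of -0.32 ± 0.08 (adjusted p = 0.0457) in AET_MET. Acsf2, an acyl-CoA synthetase of low level, fell in AET, with a log2 change of -0.93 ± 0.26 (adjusted p = 0.0354). Mcee, the epimerase before Mut, was lower in AET_MET than in AET, with a log2 change of -0.37 ± 0.09 (adjusted p = 0.0462), and Nudt19, a coenzyme A hydrolase of peroxisomes, was higher, with one of 0.36 ± 0.09 (adjusted p = 0.0403).

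Libraries of 1 group differed in the same direction for most of the 35 genes. Summed over the 35, the level was 3879.6, 4008 and 4279.7 CPM in the SED libraries, 3086, 3382 and 4124 in those of AET and 3290.0, 3289 and 2864 in those of AET_MET. AET replicate 3 stood within the SED range, while the other trained libraries were below it. AET replicate 3 had the highest AET value for 28 of 35 members and AET replicate 1 the lowest for 25, and AET_MET replicate 3 had the lowest AET_MET value for 28. Against the SED range, 28 members were lower in AET replicate 1, 26 in AET replicate 2 and 9 in AET replicate 3. Above that range stood 2, 2 and 11 members in the same libraries. In AET_MET, 25, 27 and 30 members were lower and 4, 2 and 3 higher. The shares of all genes outside the SED range in single libraries were not computed. AET replicate 3 was also the library with the most slow-fiber marker RNA. AET_MET replicate 1, with the least, did not have the lowest summed level, since AET_MET replicate 3 did. That library was also the lowest in Myh2 and Mb, and AET replicate 3 the highest in both, while its summed level of the 35 genes stood second to that of SED replicate 3. With the 9 libraries falling into groups, no correlation was computed, and the part of slow-fiber or fast oxidative fiber content in these differences was not tested.

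**Figure D5:**
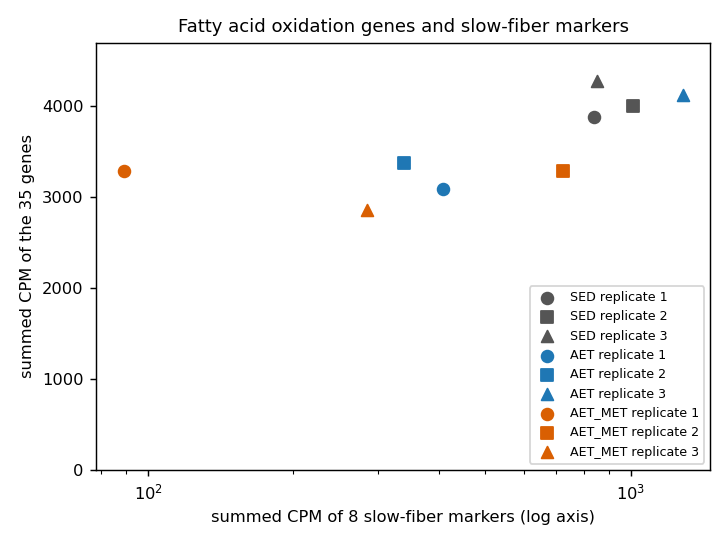
Summed CPM of the 35 genes (y axis) against summed CPM of 8 slow-fiber markers (x axis, log scale), with 1 point per library. AET replicate 3 stands with SED at the upper right, and AET_MET replicate 1 stands farthest left at 89.1 CPM of the markers.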

How the data were processed

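The submitters deposited RSEM expected counts per gene for 9 mouse gastrocnemius libraries, which are estimated counts that need not be whole. STAR 2.5.3a, RSEM 1.3.0, edgeR 3.34.0 and GRCm38 are named without roles, per the submitters' processing notes. No source used here gives the annotation release, filters or strand use. Between 4.85% and 5.53% of a library's values were not whole, and all were rounded. Of 55416 identifiers 52083 matched a GENCODE M21 symbol. Of the 11 members called in a comparison, 8 overlap another annotated gene, as do 21 of all 35, so their reads may be shared with it.

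Genes were filtered with filterByExpr, scaled by TMM and tested with edgeR 4.0.16 (R 4.3.3) in a robust quasi-likelihood fit of all 9 libraries with group as the only term, with 6 residual degrees of freedom and Benjamini-Hochberg adjustment over 13944 genes. All adjusted p are from this test, and a gene was called under 0.05. Changes are log2 fold changes ± SE. DESeq2 1.42.0, other scalings and filters, a replicate block and leaving out each library were alternatives. CPM per kb uses the length of the APPRIS principal transcript in GENCODE M21. The fit was tested on simulated data. Members called in a comparison, and the first listed and the most abundant member of each step, are given in every library. Of the other pathway genes, up to 6 with the smallest adjusted p were to be named, and 1 of them is not reported here. Members and lists were chosen with earlier results of these data known.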

Additional observations from a re-analysis of the deposited data

How the results depend on the processing

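Each edgeR alternative changed 1 choice, after which filter, scaling and spread were worked out anew. The genes tested could thus differ, as with 14343 without AET replicate 3 against 13944 as reported. DESeq2 differs in scaling, spread estimate, test and filtering before adjustment. Calls of members in AET against SED numbered 3 as reported, 6 with no filter and 5 with DESeq2, beside 1712, 1718 and 1694 of all genes. In AET_MET against SED they numbered 10 as reported, 2 with library sizes alone and 16 with DESeq2 (15 lower, 1 higher). Beside these stood 640, 860 and 897 of all genes, with 551 lower and 346 higher by DESeq2. In AET_MET against AET 1 was called as reported, with library sizes alone 0, no filter 2, the filter of at least 5 CPM in 3 libraries 2, the fit of the 2 groups alone 0 and DESeq2 3. For that comparison 478 genes in all were called, 767 with library sizes alone (611 higher, against 231 as reported), 731 with no filter and 876 with DESeq2. In AET_MET against SED, library sizes alone gave 684 higher of 860 calls, against 303 of 640 as reported, and in AET against SED upper-quartile scaling gave 980 higher of 1691, against 812 of 1712. With 1 library left out, member calls ran from 2 to 8 in AET against SED, 0 to 14 in AET_MET against SED and 0 to 0 in AET_MET against AET. All-gene calls ran from 934 to 1509, 141 to 655 and 23 to 461, and member medians from -0.30 to -0.07, -0.39 to -0.27 and -0.18 to -0.06. The replicate block, a term for the shared replicate number, gave 4, 8 and 0 member calls and 1530, 535 and 358 genes in all. It ended the edgeR call of Etfb in AET_MET against AET (adjusted p = 0.0631). In AET_MET against SED it ended those of Cpt2 (0.0581) and Acadl (0.0672). With the block the log2 changes of Etfb, Cpt2 and Acadl were -0.47, -0.52 and -0.59, beside -0.48, -0.52 and -0.59 as reported. Why these calls ended was not tested. Same-numbered libraries of different groups correlated in their deviations from group means at -0.05 to 0.18 and others at -0.17 to 0.14, so the numbers were not taken to pair the libraries. No member turned sign under any alternative in a comparison where it was called. Small changes of members in comparisons where they were not called turned with a scaling, in at most 3 members of a comparison. The cause of these shifts was not tested. The lowest count of a member in a library was 27, and 3 libraries a group limit the precision of every test.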
